A study of Homo sapiens with 40 samples.

Results

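A set of 9 p53 target genes was followed through the induction of shRNAs against CASP10, the gene of caspase-10, in human myeloma and lymphoma cell lines. The genes were CDKN1A, MDM2, AEN, GADD45A, DDB2, XPC, BTG2, TP53I3 and SAT1, and probes were taken by the gene symbol in the platform's annotation. Of the 9 genes, 8 had a probe, which gave 14 of the array's 15246 probes and 8 of its 4604 named genes. CDKN1A and DDB2 had 3 probes each, MDM2 and XPC had 2 each, and AEN, GADD45A, TP53I3 and SAT1 had 1 each. No probe carried the symbol of BTG2, which was not analysed here.

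p53 is a transcription factor that is stabilised by DNA damage and other stress, and it switches on genes that stop the cell cycle, repair DNA, lower p53 itself and promote cell death. Its transcripts are often read together as a sign of p53 activity, and a single target can also be driven by other factors. Myeloma cells are malignant plasma cells, and caspase-10 is an initiator caspase that is related to caspase-8.

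The lines SKMM1, H929 and KMS12 are myeloma lines, and OCI-Ly7 and OCI-Ly19 are B-cell lymphoma lines that served as controls. All cells carried a retroviral vector with a doxycycline-inducible hairpin and had been selected with puromycin. On 36 of the 40 two-colour lymphochip arrays, RNA of cells given 20 ng/ml doxycycline for 24 to 120 hours (Cy5) was set against that of cells of the line left uninduced for as many days (Cy3). The hairpin shCasp10-2 was induced in SKMM1 (12 arrays, days 1 to 5), H929 (8 arrays, days 1 to 5), KMS12 (4 arrays, days 1 to 4), OCI-Ly7 and OCI-Ly19 (2 arrays each, days 3 and 4), and shCasp10-3 in H929 and KMS12 (4 arrays each, days 2 to 5). On the other 4 arrays (days 1 to 4), SKMM1 with shCasp10-2 was set against SKMM1 in which a control hairpin, shCtrl, had also been induced, so that both channels held RNA of doxycycline-treated cells. In the arrays against uninduced cells doxycycline was in 1 channel only, and its effect and that of the hairpin cannot be told apart there. In those against shCtrl the channels held cells with different hairpins, and no array compared these cells before induction. A difference already present then cannot be told apart from the effect of the hairpin. The ratios hold no expression levels, so the identity of the lines could not be checked against their marker genes.

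Every value is a deposited log ratio, read here as log2 of Cy5 over Cy3; a value of 1 is then a doubling in the induced cells. The base of the logarithm and the direction of the ratio are likely but not stated. The arrays differed in spread. On 12 of them, called wide arrays here, more than 10% of all probes lay beyond 3 in either direction, from 10.3% to 46.4% of probes. On the other 28 the share was between 0.026% and 8.58%. The wide arrays were 5 of SKMM1, 4 of H929, 2 of KMS12 and 1 of OCI-Ly7. On the SKMM1 arrays of repeat 2 the wide tail lay below 0, and on those of repeat 3 it lay above 0. The repeat 3 arrays of days 2 and 3 were not wide, yet 5.48% and 7.48% of their probes lay above 3. In repeat 1 the share beyond 3 in either direction was 0.046% to 0.315%. Leaving out the wide arrays therefore removed the low tail of repeat 2 and kept part of the high tail of repeat 3. Over all probes, Pearson's r between arrays of repeats 2 and 3 was between -0.441 and -0.157. Between repeats 1 and 2 it was -0.392 to -0.239, and between repeats 1 and 3 it was 0.134 to 0.515. The SKMM1 day 5 array labelled repeat 1 correlated with repeat 2 (r of 0.44 to 0.662) and against repeat 1 (-0.421 to -0.285), and the day 5 array labelled repeat 2 correlated with repeat 3 (0.496 to 0.671). As deposited, repeat 2 thus ran against repeats 1 and 3, which ran together. The labels give repeats 2 and 3 the same dyes, and the direction of neither is settled by these correlations alone. The fits to all arrays were repeated with the sign of each turned. In the fits without the wide arrays repeat 2 has no array, so there only the sign of repeat 3 was turned, an alternative chosen after seeing the data. The day 1 and day 5 arrays of SKMM1 and of H929 with shCasp10-2 carried no repeat number that fitted a time course, so they are described array by array and enter no fit.

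CASP10, the target of the hairpins, was below 0 on 19 of the 21 myeloma arrays against uninduced cells that were not wide, with a median of -0.30 (lowest -0.89, highest 0.13). It ran from -0.89 to -0.02 in SKMM1, from -0.54 to -0.24 in KMS12 and from -0.38 to 0.13 in H929. In H929 with shCasp10-3 it stayed near 0, at -0.09 and 0.03. Over days 2 to 4 of SKMM1 its mean was -0.36 in repeat 1 and -1.62 in repeat 2, where all arrays were wide. In repeat 3 it was 0.01 with all arrays and -0.16 without the wide one. Against shCtrl it was -0.43, -0.74, -0.68 and -0.57 on days 1 to 4. In OCI-Ly7 it went against the label, at 2.04 on the wide day 3 array and 1.50 on day 4, so the library labelled shCasp10-2 there shows no lower CASP10 transcript. In OCI-Ly19 it was 0.12 and -0.24.

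**Figure D1:**
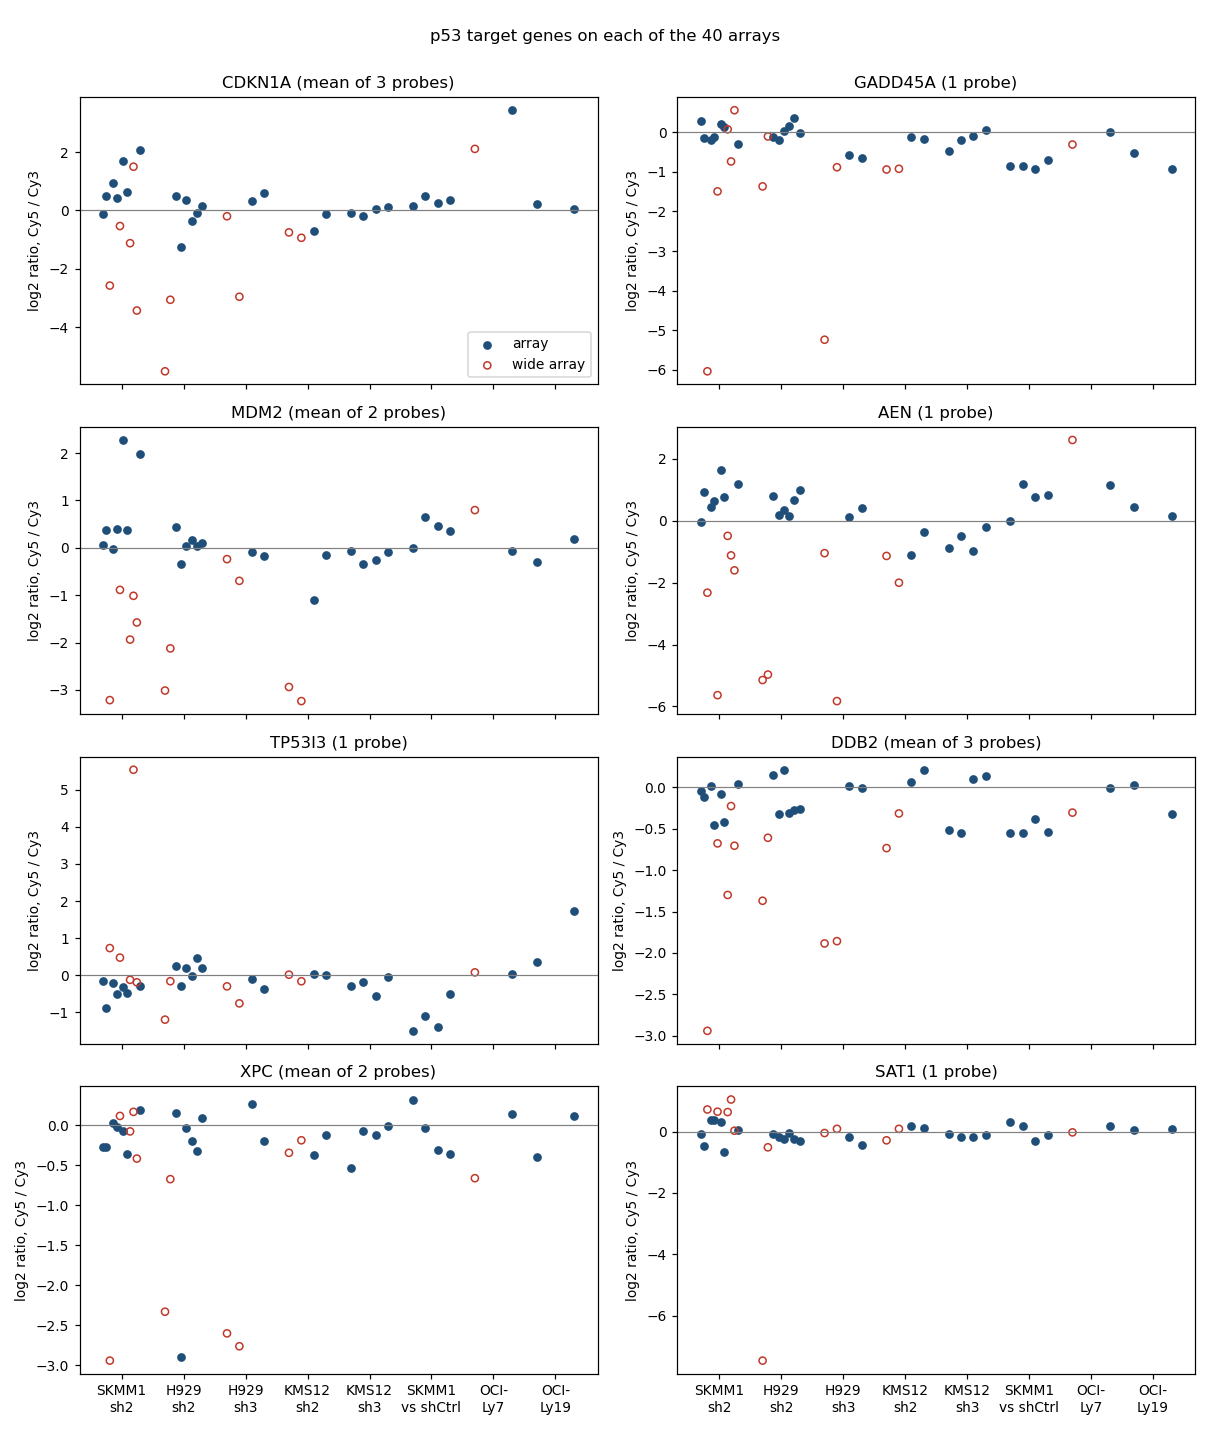
Log2 ratios (Cy5 over Cy3) of the 8 measured p53 target genes on all 40 arrays, in columns by cell line and hairpin (sh2 is shCasp10-2, sh3 is shCasp10-3) and, within a column, in order of day; SKMM1 against shCtrl has its own column. Filled points are arrays that are not wide and hollow points are wide arrays; on the filled points AEN was above 0 in H929 (0.13 to 1.00) and below 0 in KMS12 (-1.10 to -0.19).

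With all arrays, no p53 target passed the test in any line. The replicate was the time course, that is the days 2 to 4 of 1 line, 1 hairpin and 1 repeat, and limma was fitted to the means of 8 myeloma courses and adjusted by Benjamini-Hochberg over 9681 features. It called 0 features in the myeloma response and 0 in each of the SKMM1, H929 and KMS12 responses (0% of features in each), and the unadjusted p was under 0.05 for 467, 246, 151 and 77 of them, in that order. The 8 p53 targets had a median of -0.50 against -0.27 over all features, and 6 of 8 lay below 0. AEN was at -0.87 (SE 0.51), GADD45A at -0.66 (0.39), XPC at -0.54 (0.22), MDM2 at -0.53 (0.33), DDB2 at -0.46 (0.23), CDKN1A at -0.31 (0.36), SAT1 at 0.05 (0.14) and TP53I3 at 0.06 (0.26). The smallest adjusted p among the 8 was 0.682 with limma, and XPC alone had an unadjusted p under 0.05. These means rest on the wide arrays, and 5 of the 8 (AEN, CDKN1A, MDM2, TP53I3 and SAT1) lay on the other side of 0 without them.

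Without the wide arrays and with the ratios as deposited, AEN and CDKN1A rose and TP53I3 fell in SKMM1; with the sign of SKMM1 repeat 3 turned, none of the 3 passed. This fit used single arrays of days 2 to 4 with the course as a random block (5 SKMM1, 6 H929 and 5 KMS12 arrays). AEN was at 0.90 (SE 0.20, limma adjusted p = 0.0227), CDKN1A at 0.87 (SE 0.26, adjusted p = 0.0436) and TP53I3 at -0.46 (SE 0.14, adjusted p = 0.0493). MDM2 was at 0.71 (SE 0.32, adjusted p = 0.135), DDB2 at -0.20 (0.15), XPC at -0.13 (0.39), GADD45A at -0.02 (0.14) and SAT1 at 0.01 (0.17), and none of these 5 passed. Of all features, 11.7% were called in the SKMM1 response, made up of 8.32% higher and 3.36% lower, against 2 of 8 p53 targets higher and 1 of 8 lower. The median of the 8 was -0.01 beside 0.14 over all features. With each array's median set to 0, AEN (0.79), CDKN1A (0.76) and TP53I3 (-0.57) kept their calls. A fit to course means of the same arrays gave AEN 0.91 (adjusted p = 0.172), CDKN1A 0.92 (adjusted p = 0.181) and TP53I3 -0.44 (adjusted p = 0.223) and called 0 features (2397 at an unadjusted p under 0.05).

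With the sign of repeat 3 turned, the same fit gave AEN -0.07 (SE 0.34), CDKN1A -0.33 (SE 0.36), TP53I3 -0.21 (SE 0.19) and MDM2 -0.32 (SE 0.42) in SKMM1, each at a limma adjusted p of 1 after rounding, and called 0% of features (355 at an unadjusted p under 0.05). The calls of AEN and CDKN1A therefore hold only for the deposited sign of repeat 3. As deposited, repeats 1 and 3 ran together over all probes, so the turn sets them against each other for most features. The loss of the calls is thus not particular to these genes and does not settle the direction of repeat 3. Values above 0 were also found on arrays that the turn does not touch. The course means of repeat 1 were 0.78 for AEN and 0.53 for CDKN1A. Against shCtrl, AEN was at 0.77 to 1.18 and CDKN1A at 0.27 to 0.50 from day 2. The calls also rested on few courses, since only repeats 1 and 3 of SKMM1 had arrays that were not wide. Without repeat 3, AEN was at 0.78 (limma adjusted p = 0.0717) and CDKN1A at 0.53 (adjusted p = 0.383), and without repeat 1, TP53I3 was at -0.26 (adjusted p = 0.428). Without KMS12 shCasp10-3, which enters through the shared spread, AEN stood at an adjusted p of 0.0517, CDKN1A at 0.077 and TP53I3 at 0.0695. CDKN1A was also past 0.05 without H929 repeat 2 (0.0531) or KMS12 shCasp10-2 (0.0528). TP53I3 lost its call without any 1 of the H929 or KMS12 courses or without SKMM1 repeat 3 (adjusted p from 0.0523 to 0.0948). With all arrays and the sign of SKMM1 repeat 2 turned, the SKMM1 response of AEN was 1.31 and that of MDM2 0.94, and with repeat 3 turned that of CDKN1A was -0.75; 0 features were called in either case.

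**Figure D2:**
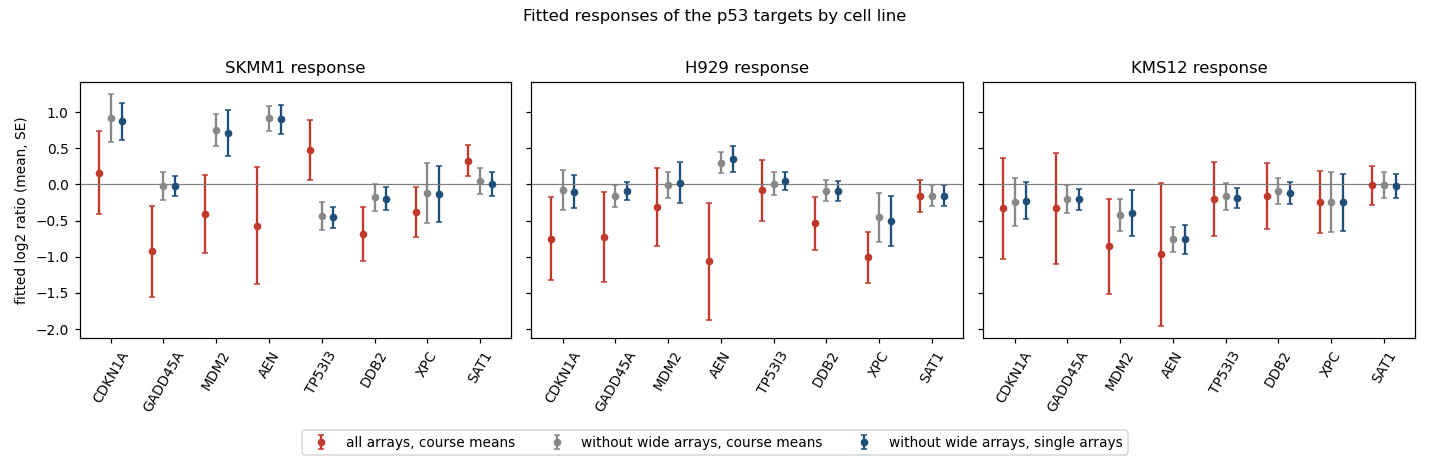
Fitted log2 ratios with their SE for the 8 p53 targets in each myeloma line, from all arrays as course means, from course means without the wide arrays and from single arrays without them. In the SKMM1 panel AEN moved from -0.57 with all arrays to 0.91 and 0.90 without the wide arrays, and in the KMS12 panel it stayed below 0 in each fit.

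CDKN1A and GADD45A are the members that halt the cell cycle. CDKN1A encodes p21, an inhibitor of cyclin-dependent kinases. In SKMM1 repeat 1 its gene mean was 0.51, 0.43 and 0.64 on days 2, 3 and 4, and in repeat 3 it was 0.93 and 1.69 on days 2 and 3 and 1.50 on the wide day 4 array. The day 1 array read -0.12 and the day 5 array labelled repeat 2 read 2.08, while the wide arrays of repeat 2 read -2.57, -0.53 and -1.12 and the wide day 5 array -3.43. So on the 6 SKMM1 arrays of days 2 to 5 that were not wide CDKN1A was always above 0, and it stood between percentile 75.9 and 89.3 of all features of the same array. Against shCtrl it was 0.17, 0.50, 0.27 and 0.34 on days 1 to 4, above 0 on each day.

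In the other myeloma lines CDKN1A had no steady direction. On the 8 H929 arrays that were not wide it ran from -1.25 to 0.58 (median 0.23), and on the 6 of KMS12 from -0.71 to 0.11 (median -0.10). In OCI-Ly7 it was 2.11 on the wide day 3 array and 3.43 on day 4, at percentiles 82.5 and 93.5 of all features. On these arrays 13.2% and 7.95% of all probes lay above 3. In OCI-Ly19 CDKN1A was 0.22 and 0.06. The difference between the myeloma and lymphoma lines (days 3 and 4) was -1.61 (SE 0.81, limma adjusted p = 0.639) with all arrays and -1.30 (SE 0.63, adjusted p = 0.327) without the wide ones, with 0% and 0.0103% of all features called.

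The 3 CDKN1A probes differed in size. In SKMM1 repeat 1 they read 0.55, 0.39 and 0.58 on day 2 and 0.52, 0.49 and 0.91 on day 4 (probes 1, 2 and 3, in the order of their identifiers). On the day 5 array labelled repeat 2 they read 5.23, 0.30 and 0.70, so probe 1 alone made the high mean. On OCI-Ly7 day 4 they read 4.55, -0.15 and 5.89. All 3 were above 0 on each of the 5 SKMM1 arrays of days 2 to 4 that were not wide, with medians of 0.55, 0.39 and 0.80. Probe 1 lay beyond 3 on 8 of 40 arrays, 6 of them wide, probe 2 on 1 and probe 3 on 3.

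GADD45A encodes a small stress protein that acts in growth arrest and DNA repair. Its single probe read -0.14, -0.13 and 0.13 in SKMM1 repeat 1 (days 2, 3 and 4) and -0.20 and 0.21 in repeat 3 (days 2 and 3), on both sides of 0. Against shCtrl, however, it was -0.85, -0.84, -0.94 and -0.70 on days 1 to 4, below 0 on every day and below each of the SKMM1 values against uninduced cells that came from an array that was not wide. The day 1 array against uninduced cells read 0.29, so the gap between the references was there from day 1. There is 1 course against shCtrl, so no test was made of this difference. In H929 with shCasp10-3 it was -0.56 and -0.66 on days 4 and 5, where CASP10 stayed near 0. In H929 with shCasp10-2 it ran from -0.19 to 0.35 on the 6 arrays that were not wide. Values of -6.04 and -5.24 stood on wide arrays (SKMM1 repeat 2 day 2 and H929 shCasp10-3 day 2).

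MDM2 encodes the ubiquitin ligase that degrades p53 and closes its feedback loop. The gene mean in SKMM1 was 0.38, 0.40 and 0.37 in repeat 1 (days 2, 3 and 4), and -0.03 and 2.28 on days 2 and 3 of repeat 3. It was 0.05 on day 1 and 1.98 on the day 5 array labelled repeat 2. Against shCtrl it was -0.01, 0.65, 0.47 and 0.36 on days 1 to 4. It thus lay near 0 on day 1 and above 0 from day 2 on 8 of these 9 arrays. On the 5 wide SKMM1 arrays it was below 0 throughout, at -3.22, -0.89 and -1.94 in repeat 2 (days 2, 3 and 4), -1.01 on day 4 of repeat 3 and -1.58 on the day 5 array labelled repeat 1, so that 6 of all 12 SKMM1 arrays against uninduced cells lay above 0. In KMS12 it was below 0 on all 6 arrays that were not wide, from -1.09 to -0.08, and in H929 it ran from -0.35 to 0.44 on 8 such arrays.

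The 2 MDM2 probes did not move alike. Probe 1 stayed between -1.07 and 0.61 on all 40 arrays. Probe 2 ran from -6.80 to 4.15 and lay beyond 3 on 9 arrays, 7 of them wide. On the arrays that set the high gene means, SKMM1 repeat 3 day 3 and the day 5 array labelled repeat 2, probe 1 read 0.57 and -0.20 and probe 2 read 3.98 and 4.15. In SKMM1 repeat 1, where no array was wide, both were above 0: probe 1 read 0.30, 0.22 and 0.22 and probe 2 read 0.46, 0.58 and 0.51 on days 2, 3 and 4.

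**Figure D3:**
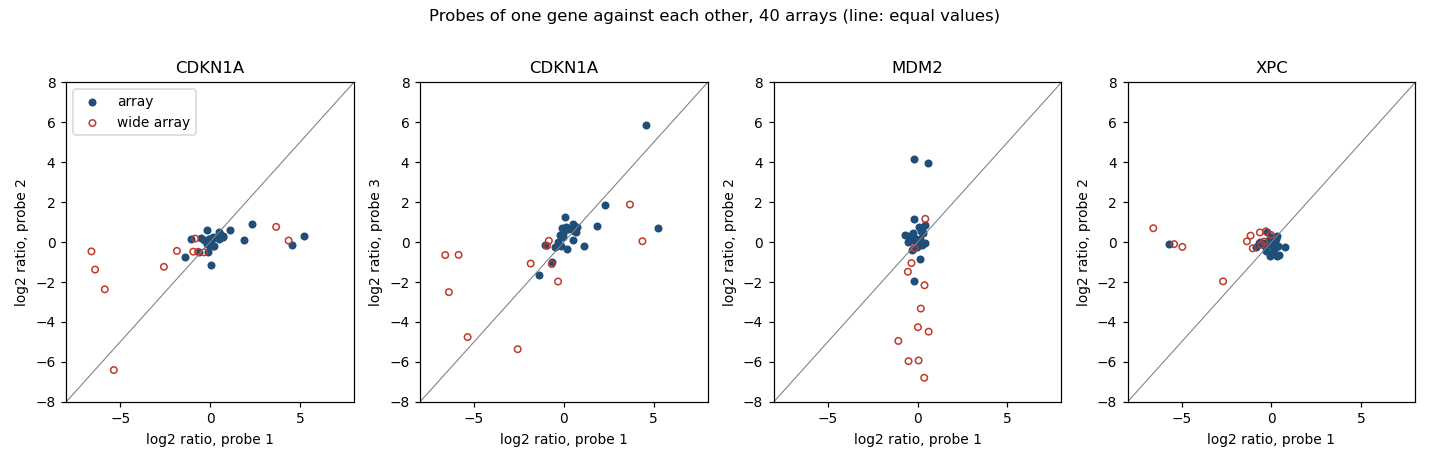
Log2 ratios of probes of one gene against each other on the 40 arrays (CDKN1A probes 1 and 2, CDKN1A probes 1 and 3, MDM2 probes 1 and 2, XPC probes 1 and 2), with the line of equal values; hollow points are wide arrays. MDM2 probe 2 ran from -6.80 to 4.15 while probe 1 stayed between -1.07 and 0.61, and XPC probe 1 reached -6.57 while probe 2 stayed above -1.97.

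AEN and TP53I3 are linked to cell death. AEN encodes a nuclease that digests DNA and RNA in apoptosis. The stretch of its promoter before the annotated start (RefSeq, GRCh38.p14, plus strand, chr15:88621190-88621339) is shown because AEN had the smallest adjusted p of the 8 genes in SKMM1. The capitals mark a match to the p53 half-site consensus, which begins 34 bases before the start.

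AEN promoter: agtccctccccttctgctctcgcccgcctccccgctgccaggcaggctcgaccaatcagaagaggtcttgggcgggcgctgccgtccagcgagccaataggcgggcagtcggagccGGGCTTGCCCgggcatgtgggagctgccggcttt

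The half-site consensus, 10 bases long and the same on both strands, was searched in windows from 250 bases before to 50 after the start. It was present in 2329 of 35116 RefSeq windows (6.63%) and in 2 of the 12 windows of the listed genes, 1 of AEN and 1 of DDB2. Of the 9 listed genes 8 had a window, and sites farther from the start were not searched. A gene without a match here may therefore have a p53 site elsewhere. A match is a run of letters and shows no binding.

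In SKMM1 the AEN probe read 0.94, 0.66 and 0.76 on days 2, 3 and 4 of repeat 1 and 0.45 and 1.64 on days 2 and 3 of repeat 3. It read -0.04 on day 1 and 1.18 on the day 5 array labelled repeat 2. These 6 values of days 2 to 5 were all above 0 and stood between percentile 72.8 and 90.7 of their arrays. On the wide SKMM1 arrays it read -2.32, -5.64 and -0.49 (repeat 2), -1.12 (repeat 3 day 4) and -1.60 (day 5), all below 0. Against shCtrl it was -0.01, 1.18, 0.77 and 0.84 on days 1 to 4, so AEN was near 0 on day 1 and above 0.7 from day 2 with that reference too.

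The other lines separated by sign. In H929 AEN was above 0 on all 8 arrays that were not wide: 0.81, 0.34 and 0.68 on days 2, 3 and 4 of repeat 2, 0.19 and 0.15 on days 3 and 4 of repeat 1, 1.00 on the day 5 array, and 0.13 and 0.43 with shCasp10-3 on days 4 and 5. On the 4 wide H929 arrays it lay between -5.83 and -1.05. In KMS12 it was below 0 on all 8 arrays, wide ones included: with shCasp10-2 it read -1.14, -2.0, -1.10 and -0.38 (days 1 to 4) and with shCasp10-3 it read -0.87, -0.49, -0.98 and -0.19 (days 2 to 5). On the 6 KMS12 arrays that were not wide it stood between percentile 1.6 and 20.6. In OCI-Ly7 it read 2.61 and 1.16 (percentiles 85.3 and 84.1) and in OCI-Ly19 0.44 and 0.15, above 0 on each lymphoma array.

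Without the wide arrays, AEN differed between SKMM1 and KMS12. The difference was 1.66 (SE 0.29, limma adjusted p = 0.0367), and 0.207% of all features (20 of 9681) were called in that comparison. AEN alone of the 8 genes was called in this fit; CDKN1A differed by 1.10 (SE 0.36, adjusted p = 0.0982) and MDM2 by 1.11 (SE 0.45, adjusted p = 0.149). With course means of the same arrays the AEN difference was 1.67 (adjusted p = 0.241), and with all arrays it was 0.40 (SE 1.28). The adjusted p was 0.0591 without H929 repeat 1, 0.0721 without H929 repeat 2, 0.334 without KMS12 shCasp10-2, 0.0636 without KMS12 shCasp10-3 and 0.056 without SKMM1 repeat 3. With the sign of SKMM1 repeat 3 turned it was 0.69 (SE 0.48, adjusted p = 1 after rounding), and 0% of features were called (116 at an unadjusted p under 0.05). AEN kept its call without SKMM1 repeat 1 (1.81) and without H929 shCasp10-3 (1.66). CDKN1A was called only when SKMM1 repeat 1 was left out (1.53, adjusted p = 0.0355).

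The arrays of days 2 to 4 that were not wide (5 of SKMM1, 5 of KMS12) did not overlap for 3 of the 8 genes, CDKN1A, MDM2 and AEN, all higher in SKMM1. Over all features, 14.5% separated in that direction and 1.82% in the other. The arrays of SKMM1 and H929 (5 and 6) overlapped for all 8 genes, where 4.79% of features separated with SKMM1 higher and 0.795% with SKMM1 lower. In a comparison added after seeing the data, H929 lay above KMS12 without overlap for 1 of the 8 genes, AEN, as for 0.475% of features, and 0.331% lay below. With the sign of SKMM1 repeat 3 turned, 0 of the 8 genes separated SKMM1 from either line. The features that did were then 0.403% above and 0.837% below KMS12, and 0.0826% above and 0.227% below H929. Between H929 and KMS12 AEN differed by 1.11 (SE 0.27) without the wide arrays and by -0.09 (SE 1.28) with them, and neither passed (limma adjusted p = 1 for both after rounding; 0% of features called in each). In the KMS12 response alone AEN was at -0.76 (SE 0.20, adjusted p = 0.311), with 0% of features called, and in the H929 response at 0.35 (SE 0.18, adjusted p = 0.825), likewise with 0%. Over all 3 lines 4.57% of features were called in the myeloma response without the wide arrays and 0 of the 8 genes. Its values were AEN 0.16 (SE 0.11), CDKN1A 0.18 (0.14), MDM2 0.11 (0.18) and TP53I3 -0.20 (0.08, adjusted p = 0.159).

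**Figure D4:**
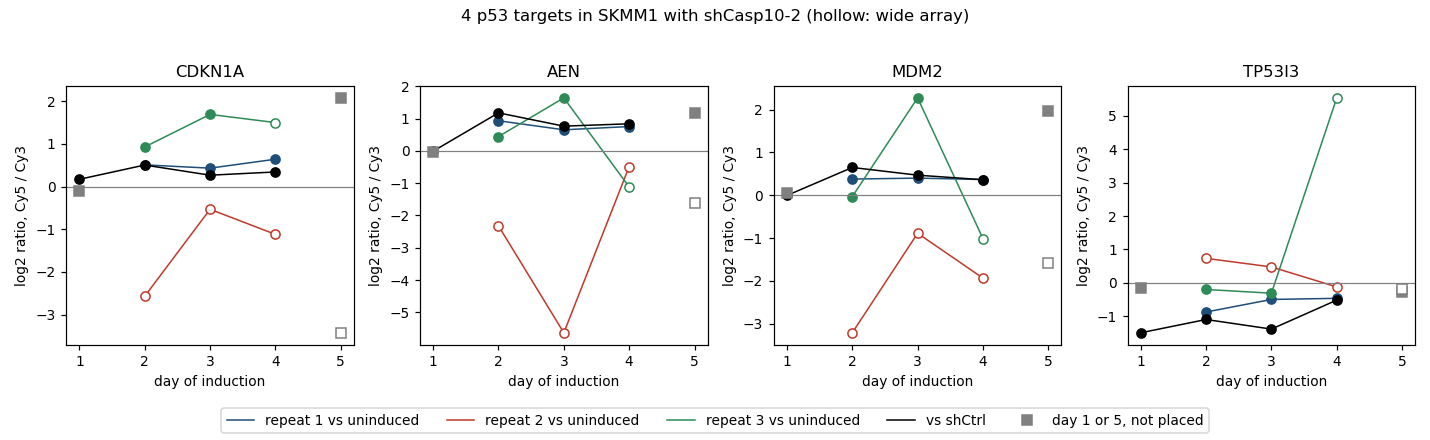
Log2 ratios of CDKN1A, AEN, MDM2 and TP53I3 in SKMM1 by day of induction (days 1 to 5), 1 line per repeat against uninduced cells and 1 for the arrays against shCtrl; squares are arrays placed in no course and hollow symbols are wide arrays. AEN read -0.04 and -0.01 on day 1 and 0.45 to 1.64 on the filled symbols from day 2, while TP53I3 stayed below 0 on every filled symbol.

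TP53I3, also known as PIG3, encodes an oxidoreductase that is linked to reactive oxygen species in p53-dependent cell death. In SKMM1 it read -0.88, -0.50 and -0.47 on days 2, 3 and 4 of repeat 1 and -0.20 and -0.31 on days 2 and 3 of repeat 3. It read -0.16 on day 1 and -0.28 on the day 5 array labelled repeat 2. It was thus below 0 on all 7 arrays that were not wide, and on the 6 of days 2 to 5 it lay on the other side of 0 from AEN and CDKN1A. Against shCtrl it was -1.50, -1.10, -1.39 and -0.52 on days 1 to 4, and the -1.50 on day 1 stood at percentile 0.9 of that array. The value against shCtrl was thus lowest on day 1, when the array against uninduced cells read -0.16. The highest value of the gene, 5.54, came from the wide day 4 array of SKMM1 repeat 3. In H929 it ran from -0.39 to 0.46 on the 8 arrays that were not wide and in KMS12 from -0.57 to 0.04 on 6. In OCI-Ly19 it read 0.36 on day 3 and 1.72 on day 4.

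DDB2 and XPC recognise damaged DNA in nucleotide excision repair, DDB2 as the small subunit of the UV-damaged DNA-binding complex and XPC as the sensor of helix distortion. A window of DDB2 holds a pair of p53 half-sites, shown here in capitals with 4 bases on each side because only 10 of the 35116 windows (0.0285%) hold 2 half-sites at most 13 bases apart. The first half-site begins at base 6 of the transcript (RefSeq, GRCh38.p14, plus strand, chr11:47214975-47215003), and 1 base separates the pair.

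DDB2 site: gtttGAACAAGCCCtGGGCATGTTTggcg

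DDB2 passed the test in none of the fits given here. Its mean over 3 probes was -0.11, -0.45 and -0.42 in SKMM1 repeat 1 (days 2, 3 and 4) and 0.02 and -0.08 on days 2 and 3 of repeat 3. Against shCtrl it was -0.55, -0.55, -0.38 and -0.54 on days 1 to 4, below 0 on each day, while the day 1 array against uninduced cells read -0.05. In H929 it ran from -0.32 to 0.21 and in KMS12 from -0.55 to 0.21 on the arrays that were not wide. On all 12 wide arrays it was below 0, down to -2.94 on day 2 of SKMM1 repeat 2. Probe 3 reached -6.11 there, whereas probe 2 stayed between -1.35 and 0.42 over the 40 arrays.

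XPC did not pass either, although its values lay below 0 on 16 of the 21 myeloma arrays that were not wide. The median of these was -0.12, and 15 of the 21 myeloma values of SAT1 and of TP53I3 lay below 0 as well. In SKMM1 repeat 1 XPC read -0.28, -0.02 and -0.36 on days 2, 3 and 4. The lowest value off the wide arrays, -2.89 in H929 repeat 1 on day 3, came from probe 1 alone (-5.71, against -0.08 for probe 2). Probe 1 lay beyond 3 on 4 of the 40 arrays and probe 2 on 0. With all arrays the H929 response of XPC was -1.01 (SE 0.35, limma adjusted p = 0.983).

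SAT1 encodes the acetyltransferase that starts the breakdown of spermidine and spermine. In SKMM1 repeat 1 it read -0.46, 0.38 and -0.65 (days 2, 3 and 4), and it read 0.37, 0.30 and, on the wide day 4 array, 1.04 in repeat 3. It was above 0 on all 5 wide SKMM1 arrays (0.03 to 1.04) and on 4 of the 7 that were not wide. In H929 it was below 0 on all 8 arrays that were not wide, from -0.44 to -0.04, and its response there was -0.16 (SE 0.15). Its lowest value, -7.46, came from the wide day 1 array of H929.

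No gene of the 8 passed the test for a change with day or hairpin. Within courses, day 4 minus day 2 was above 0 for 8 of 8 genes with all arrays (median 0.71 against 0.50 over all features, smallest adjusted p = 0.413 with limma). In the single-array fit without the wide arrays it was below 0 for 7 of 8 (median -0.06 against -0.07). There the course was a random block, and several courses kept only 1 of the 2 days, so the 2 fits compare unlike sets of courses. In both fits 0% of features were called (1066 and 440 at an unadjusted p under 0.05). The difference between shCasp10-3 and shCasp10-2 in H929 and KMS12 had a median of -0.50 over the 8 genes with all arrays (-0.0054 over all features) and -0.15 without the wide ones (0.077 over all features), and 0% of features were called in either (187 and 946 at an unadjusted p under 0.05). Between SKMM1 and H929 0 of the 8 genes and 0% of features were called with all arrays and without the wide ones (40 and 1674 at an unadjusted p under 0.05); CDKN1A differed by 0.97 (SE 0.34, adjusted p = 0.211) and TP53I3 by -0.51 (SE 0.19, adjusted p = 0.216) in the latter. With all arrays, 0% of features were also called between SKMM1 and KMS12 (75 at an unadjusted p under 0.05).

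Over the 28 arrays that were not wide, each centred on its median, AEN and MDM2 moved most alike of the 28 pairs of genes (Pearson's r of 0.65), followed by CDKN1A with AEN (0.55) and CDKN1A with MDM2 (0.46). Without the OCI-Ly7 day 4 array these were 0.70, 0.57 and 0.78. The lowest r was between AEN and DDB2, -0.35. The arrays share lines and courses, and single probes carry much of the spread. Of 4603 named genes, those most like CDKN1A over all 28 arrays were FER (0.94), ZNF37B (0.93), ZNF605 (0.93), ITGBL1 (0.93) and PDSS1 (0.92), and AEN and MDM2 ranked 844 and 1108. The OCI-Ly7 day 4 array, with CDKN1A at 3.43, was among these arrays. Ranks without it were not taken.

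Other p53 targets were read from a list of 38 genes, of which 24 were measured. Without the wide arrays 4 rose and 2 fell in SKMM1 and 18 did not pass, with a list median of 0.11 beside 0.14 over all features; of all features 8.32% rose and 3.36% fell there. BBC3, the pro-apoptotic protein PUMA, rose by 2.60 (SE 0.62, limma adjusted p = 0.0242). The stress kinase gene PLK3 rose by 1.51 (SE 0.35), GADD45B, a relative of GADD45A, by 0.69 (SE 0.18) and GPX1, glutathione peroxidase 1, by 0.56 (SE 0.13). CYFIP2 (-0.53, SE 0.10) and EI24 (-0.47, SE 0.12) fell. These SE use a correlation within courses that all features share, so they do not give each gene's own spread between courses. The fit to course means of the same arrays called 0 features. Repeat 3 set the size of the rises: without it BBC3 was at 0.60 (adjusted p = 0.316), PLK3 at 0.64 (0.324), GADD45B at 0.40 (0.282) and GPX1 at 0.44 (0.163), and without repeat 1 they were at 5.11, 2.60, 1.06 and 0.72. EI24 lost its call without either repeat (adjusted p of 0.0835 without repeat 3 and 0.156 without repeat 1) and CYFIP2 without repeat 1 (0.0652). Without KMS12 shCasp10-3, BBC3 (0.0543), PLK3 (0.0503), GADD45B (0.0579) and EI24 (0.0623) were also past 0.05. With the sign of repeat 3 turned, BBC3 was at -2.05, PLK3 at -0.87, GADD45B at -0.28 and GPX1 at -0.10, and none of the 6 passed. In the myeloma response CCNG1, cyclin G1, rose by 0.25 (SE 0.06) and GPX1 by 0.41 (SE 0.07), and CYFIP2 (-0.32, SE 0.05) and EI24 (-0.25, SE 0.07) fell, while 20 of the 24 did not pass; 4.57% of all features were called. The call of CCNG1 was lost with each array's median set to 0 (0.24, adjusted p = 0.0644), and of 7 fits that left out 1 course 1 kept it, against 2 for EI24 and 4 each for CYFIP2 and GPX1. None of these 4 passed with the sign of SKMM1 repeat 3 turned (0% of features called). With all arrays 0 of the 24 passed, and PLK3 (-0.06) and GADD45B (-0.77) in SKMM1 and GPX1 (-0.15) in the myeloma response lay below 0. The smallest p-values with all arrays were those of CCNG1 at 0.37 (SE 0.11), EI24 at -0.36 (SE 0.13) and CYFIP2 at -0.28 (SE 0.11).

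Of 20 regulators of p53 and DNA damage kinases, 18 were measured and 1 passed in SKMM1 without the wide arrays, where 11.7% of all features did. ATR, the kinase that signals replication stress, rose by 0.80 (SE 0.23, limma adjusted p = 0.0411) in that fit. It was at 0.24 (adjusted p = 0.463) without repeat 3, at 1.51 without repeat 1 and at -0.57 with the sign of repeat 3 turned, so the rise rested on repeat 3; of 7 fits that left out 1 course 2 kept the call. The list median was 0.11. With all arrays the smallest p-values in the myeloma response belonged to RPL11 (-0.25, SE 0.13), TP53BP1 (-0.55, SE 0.35) and TP73 (-1.02, SE 0.65), and 0 passed. Of 20 cell cycle genes that the DREAM complex represses downstream of p21, 19 were measured. RRM2, a subunit of ribonucleotide reductase, fell by 0.47 in SKMM1 without the wide arrays (SE 0.11, adjusted p = 0.0252), and the other 18 did not pass; 3.36% of all features fell there. RRM2 lost its call without repeat 1 (adjusted p = 0.118), without repeat 3 (0.0714), without KMS12 shCasp10-3 (0.0517) and with repeat 3 turned (-0.069). The median of the 19 was -0.08 against 0.14 over all features. With all arrays AURKB (-0.46, SE 0.22), TOP2A (-0.35, SE 0.24) and CDK1 (-0.28, SE 0.20) had the smallest p-values in the myeloma response and 0 of 19 passed.

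Among markers of cell types, 5 of 5 plasma cell, 5 of 6 mature B cell, 3 of 3 T cell and 2 of 3 myeloid genes were measured. In the SKMM1 response without the wide arrays 0 plasma cell genes passed, 1 mature B cell gene rose and 1 T cell gene fell, beside 8.32% of all features that rose and 3.36% that fell. Their part in the values of the p53 targets was not tested.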

How the data were processed

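The authors deposited 1 log ratio per probe and array for 40 two-colour arrays, read here as log2 ratios; the base, the background correction and any scaling were not given in the sources used here. No values were missing, and no scanner intensities were used, so the number of arrays limits the precision. Genes were named through the platform annotation (1 symbol for 10169 probes, several for 4, none listed for 5073). Probes of a gene were averaged and unnamed probes kept one by one, giving 9681 features. Promoter sequences are RefSeq's (GRCh38.p14).

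Course means of days 2 to 4 (days 3 and 4 against lymphoma) were fitted with limma 3.58.1 in R 4.3.3, with Benjamini-Hochberg adjustment over all features at 0.05. Single-array fits used the course as a random block, with a correlation within courses shared by all features. Their p-values therefore do not measure each gene's own spread between courses. The labels mark repeats for H929 and SKMM1 with shCasp10-2 only. Elsewhere p-values measure the spread between these samples, which may be technical. The line responses had no term for the hairpin, so in H929 and KMS12 that spread includes the difference between shCasp10-2 and shCasp10-3. The fit to course means was tested on simulated course means, for the myeloma response only. The single-array fit, from which the calls of named genes come, was not tested on simulated data. Members and gene lists were chosen with earlier results of these data known. Named list genes are those called in a fit used here and the 3 with the smallest p per list in the myeloma response; 5 genes most like CDKN1A were named by Pearson's r. Alternatives were leaving out wide arrays or single courses, median-centring, turning the sign of SKMM1 repeat 2 or 3 (in the single-array fit repeat 3, added after seeing the data), a replicate block, runs of database numbers as a block, and probes one by one.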

Additional observations from a re-analysis of the deposited data

Results flagged for a closer look

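Among the means over days 2 to 4 of the 8 myeloma courses, TP53I3 stood apart in SKMM1 repeat 3, at 1.67 with the next highest course at 0.36. The wide day 4 array alone set this mean, at 5.54 against -0.20 and -0.31 on days 2 and 3. Among the 7 courses with arrays that were not wide, XPC stood apart in H929 repeat 1, at -1.55 with the next lowest course at -0.25. Its gene mean there was -2.89 on day 3, where probe 1 read -5.71, and -0.20 on day 4. These are 2 of 16 groups examined by Dixon's test at its 95% critical value, and chance alone flags about 1 in 20 groups.

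AEN differed between SKMM1 and KMS12 by 1.66 in the single-array fit without the wide arrays (limma adjusted p = 0.0367), and by 0.69 (adjusted p = 1 after rounding) with the sign of SKMM1 repeat 3 turned. On course means of these arrays, with the ratios as deposited, every SKMM1 course lay above 0 and every KMS12 course below 0 for AEN (difference of means 1.67), CDKN1A (1.16) and MDM2 (1.17). The limma adjusted p of these differences on course means was 0.241 for AEN, 0.256 for CDKN1A and 0.241 for MDM2. AEN likewise separated every H929 course from every KMS12 course, by 1.06, with a limma adjusted p of 1 after rounding.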

How the results depend on the processing

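Fits to course means with limma called 0 features in every comparison that was fitted, whether with all arrays, median-centred, with either sign turned, probe by probe or without the wide arrays. Single arrays without the wide arrays gave 442 (myeloma response), 1130 (SKMM1), 20 (SKMM1 minus KMS12) and 1 (myeloma minus lymphoma), 579, 1536, 15 and 1 when also median-centred, and 0 in each comparison with the sign of SKMM1 repeat 3 turned, an alternative added after seeing the data. Leaving out 1 course, over both kinds of fit, gave 0 to 790 (myeloma response), 0 to 1447 (SKMM1), 0 to 4 (H929), 0 to 20 (KMS12), 0 to 1498 (SKMM1 minus KMS12), 0 to 1060 (SKMM1 minus H929), 0 to 4 (H929 minus KMS12), 0 to 643 (myeloma minus lymphoma) and 0 to 38 (hairpins); the count for day stayed at 0. With all arrays, only leaving out OCI-Ly19 gave a call (82 features, myeloma minus lymphoma).

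The labels do not say that repeat numbers pair SKMM1 with H929; with the replicate block 0 features were called in the myeloma response and in SKMM1 minus H929, and 0 without the block for day. Deviations of repeat 1 correlated at r = -0.467 and of repeat 2 at -0.616. Under the block the sign turned for CDKN1A (myeloma) 0.0029, GPX1 (myeloma) 0.17, TOP2A (myeloma) 0.0037, CDK1 (myeloma) 0.066, TP53BP1 (myeloma) 0.047.

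Log2 values on the other side of 0 from the fit to all arrays follow by setting; the cause was not tested. Without the wide arrays on course means they were CDKN1A (myeloma) 0.20, MDM2 (myeloma) 0.11, MDM2 (SKMM1) 0.75, AEN (myeloma) 0.15, AEN (SKMM1) 0.91, TP53I3 (myeloma) -0.20, TP53I3 (SKMM1) -0.44, SAT1 (myeloma) -0.039, GPX1 (myeloma) 0.40, AEN (H929) 0.30, AEN (H929 minus KMS12) 1.06, PLK3 (SKMM1) 1.62, GADD45B (SKMM1) 0.73, GPX1 (SKMM1) 0.58. On single arrays they were CDKN1A (myeloma) 0.18, MDM2 (myeloma) 0.11, MDM2 (SKMM1) 0.71, AEN (myeloma) 0.16, AEN (SKMM1) 0.90, TP53I3 (myeloma) -0.20, TP53I3 (SKMM1) -0.46, SAT1 (myeloma) -0.055, GPX1 (myeloma) 0.41, AEN (H929) 0.35, AEN (H929 minus KMS12) 1.11, PLK3 (SKMM1) 1.51, GADD45B (SKMM1) 0.69, GPX1 (SKMM1) 0.56. With these median-centred they were CDKN1A (myeloma) 0.17, MDM2 (myeloma) 0.10, MDM2 (SKMM1) 0.60, AEN (myeloma) 0.15, AEN (SKMM1) 0.79, TP53I3 (myeloma) -0.21, TP53I3 (SKMM1) -0.57, SAT1 (myeloma) -0.066, SAT1 (SKMM1) -0.099, GPX1 (myeloma) 0.40, AEN (H929) 0.37, AEN (H929 minus KMS12) 1.07, PLK3 (SKMM1) 1.39, GADD45B (SKMM1) 0.58, GPX1 (SKMM1) 0.45. With the sign of SKMM1 repeat 2 turned they were CDKN1A (myeloma) 0.0067, MDM2 (SKMM1) 0.94, AEN (SKMM1) 1.31, GADD45A (SKMM1) 0.73, DDB2 (SKMM1) 0.40, XPC (SKMM1) 0.26, TP53I3 (myeloma) -0.016, SAT1 (myeloma) -0.095, SAT1 (SKMM1) -0.11, GPX1 (myeloma) 0.52, PLK3 (SKMM1) 2.12, GADD45B (SKMM1) 1.78, GPX1 (SKMM1) 1.20, EI24 (SKMM1) 0.051. With that of repeat 3 turned they were CDKN1A (SKMM1) -0.75, TP53I3 (myeloma) -0.31, TP53I3 (SKMM1) -0.64, SAT1 (myeloma) -0.073, SAT1 (SKMM1) -0.049, CDKN1A (SKMM1 minus KMS12) -0.42, BBC3 (SKMM1) -2.04, ATR (SKMM1) -1.11, RRM2 (SKMM1) 0.059. With repeat 3 turned in the fit to single arrays without the wide ones they were CDKN1A (SKMM1) -0.33, TP53I3 (myeloma) -0.12, TP53I3 (SKMM1) -0.21, SAT1 (myeloma) -0.15, SAT1 (SKMM1) -0.29, CDKN1A (SKMM1 minus KMS12) -0.093, GPX1 (myeloma) 0.18, AEN (H929) 0.34, AEN (H929 minus KMS12) 1.10, BBC3 (SKMM1) -2.05, ATR (SKMM1) -0.57. With all arrays median-centred, PLK3 (SKMM1) 0.015 turned. Ranges over the fits that left out 1 course were CDKN1A (myeloma) -0.51 to 0.33, CDKN1A (SKMM1) -0.44 to 1.31, MDM2 (myeloma) -0.74 to 0.25, MDM2 (SKMM1) -0.82 to 1.12, AEN (myeloma) -1.14 to 0.22, AEN (SKMM1) -1.25 to 1.04, GADD45A (SKMM1) -1.36 to 0.0065, TP53I3 (myeloma) -0.27 to 0.25, TP53I3 (SKMM1) -0.61 to 1.02, SAT1 (myeloma) -0.14 to 0.15, SAT1 (SKMM1) -0.24 to 0.62, AEN (SKMM1 minus KMS12) -0.28 to 1.81, CDKN1A (SKMM1 minus KMS12) -0.11 to 1.53, GPX1 (myeloma) -0.35 to 0.46, AURKB (myeloma) -0.58 to 0.022, AEN (H929) -1.90 to 0.45, AEN (H929 minus KMS12) -0.93 to 1.21, BBC3 (SKMM1) -0.65 to 5.11, PLK3 (SKMM1) -1.32 to 2.60, GADD45B (SKMM1) -1.71 to 1.06, ATR (SKMM1) -0.74 to 1.51, GPX1 (SKMM1) -1.42 to 0.72. The values against shCtrl kept their sign when median-centred. A block by runs of database numbers was fitted for myeloma minus lymphoma only (0 features called); it gave no estimate elsewhere. The day comparison was not fitted on course means without the wide arrays, which left no residual degrees of freedom. Signal over background is unknown.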
